A study of Mus musculus with 4 samples.

Results

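The report concerns 9 genes that have been used to mark reserve or alternative stem cells of the intestine, Hopx, Bmi1, Tert, Mex3a, Msi1, Prom1, Cd44, Sox4 and Sox9, out of 55487 genes quantified. The rule names them by symbol and uses no measured value, but they were chosen with earlier results of these data known. Each was found once in the GENCODE vM21 annotation. RNA was sequenced from stem cells sorted from crypts of untreated Lgr5-EGFP-IRES-creERT2 mice, aged from 6 up to 12 weeks, in which the Lgr5 locus drives a green reporter. Large-intestinal stem cells (LISC) were reporter-positive cells from cecum to rectum. Small-intestinal stem cells (SISC) were reporter-positive cells that were also CD24-negative, from stretches near pylorus and cecum. Both groups carry the same allele, each holds 2 libraries, and no CD24 gate is named for LISC. Nothing in the labels says whether the 2 libraries of a group came from separate animals, so p-values speak of the spread among these libraries alone, which may be technical.

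Stem cells at the crypt base express Lgr5 and divide often. A reserve pool that divides seldom was first described just above them by tracing the descendants of cells that express Hopx, Bmi1 or Tert, and transcripts of such genes were later also found in Lgr5-positive cells. The label of these genes as reserve markers therefore does not say which cell a transcript in sorted bulk RNA came from. Mex3a has been used to mark a slowly dividing subset of Lgr5-positive cells. Msi1, Prom1, Cd44, Sox4 and Sox9 have served as markers of crypt stem and progenitor cells, several of them as targets of Wnt signalling.

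The promoters of 3 of these genes are printed because Cd44 was the only one with a higher estimate in LISC, and Hopx and Sox4 had similar profiles over the libraries. The table of RefSeq promoters (build GRCm38.p6, 250 bases before to 50 after a start) had entries for 7 of the 9 genes and none for Msi1 and Sox9. All 3 genes lie on the minus strand. Capitals mark matches, on either strand, to CAAAG (the core of TCF/LEF sites), to AGATAA (bound by GATA factors) and to the box CCAAT. The matches in these windows do not overlap.
Cd44, chr2:102901616-102901915: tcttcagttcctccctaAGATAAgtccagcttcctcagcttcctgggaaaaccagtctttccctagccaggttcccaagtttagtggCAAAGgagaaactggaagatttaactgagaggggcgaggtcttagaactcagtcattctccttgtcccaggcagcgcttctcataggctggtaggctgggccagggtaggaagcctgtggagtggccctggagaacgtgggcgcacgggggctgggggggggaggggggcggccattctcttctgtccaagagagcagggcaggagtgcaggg
Hopx, chr5:77115074-77115373: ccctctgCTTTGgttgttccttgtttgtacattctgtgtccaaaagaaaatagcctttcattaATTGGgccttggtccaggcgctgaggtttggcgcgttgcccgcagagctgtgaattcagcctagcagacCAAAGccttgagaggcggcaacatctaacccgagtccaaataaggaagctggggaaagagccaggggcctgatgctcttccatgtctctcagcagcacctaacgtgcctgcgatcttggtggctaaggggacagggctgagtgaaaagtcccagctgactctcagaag
Sox4, chr13:28953650-28953949: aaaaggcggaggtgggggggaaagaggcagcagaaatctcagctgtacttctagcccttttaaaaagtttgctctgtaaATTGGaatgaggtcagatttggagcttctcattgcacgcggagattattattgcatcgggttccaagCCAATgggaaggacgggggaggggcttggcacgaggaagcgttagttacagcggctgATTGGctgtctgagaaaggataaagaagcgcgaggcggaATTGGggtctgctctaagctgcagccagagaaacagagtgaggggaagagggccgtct
The Cd44 window held 1 AGATAA, starting 233 bases before the transcription start, and 1 CAAAG, at 163 bases before it. Among all 32851 promoter windows of this length, 11.2% held AGATAA and 53.9% held CAAAG. The Hopx window shown, at the upstream start, held 2 TCF/LEF cores and 1 CCAAT box, and a second Hopx window in the table (chr5:77095218-77095517) held 1 of each. The Sox4 window held 4 CCAAT boxes and neither of the other motifs. CCAAT was found in 37.4% of all windows. These matches are descriptions of letters, and no binding was measured.

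The RNA content of the libraries split them by replicate number. Nuclear rRNA took 28.5% of counts in LISC replicate 1 and 24.1% in SISC replicate 1, against 0.0997% in LISC replicate 2 and 0.0917% in SISC replicate 2. Ribosomal protein genes took 3.85% and 9.74% of counts in LISC replicates 1 and 2, and 3.83% and 13.0% in SISC replicates 1 and 2. Total counts ran from 12795405 to 27227681 per library. Levels are given as CPM (counts relative to the TMM-scaled library size), and differences are also given within a replicate number, where they compare 2 single libraries with no test. In bulk RNA such as this, fewer cells of a type and less RNA per cell cannot be told apart. Lgr5 was read at 147 and 89.7 CPM in LISC and 114 and 173 CPM in SISC, with a fitted log2 difference of -0.28 ± 0.40 (SE; edgeR adjusted p = 0.957). Dropping SISC replicate 2 or LISC replicate 2 put it at 0.04 or 0.05. Cd24a, the gene of the surface protein gated on in SISC, was at 328 and 503 CPM in LISC and 341 and 407 CPM in SISC.

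All 9 genes were read in every library and passed the filter on low counts. None was called as different between LISC and SISC by edgeR's quasi-likelihood test at an adjusted p below 0.05, a threshold that 2.20% of the 14165 genes tested passed (1.45% higher in LISC, 0.741% higher in SISC). At an unadjusted p below 0.05 there were 2 of the 9, Msi1 and Cd44, against 13.4% of all genes tested. DESeq2 called the same 2 genes, against 7.41% of genes. In 4 other fits Msi1 alone of the 9 was called: edgeR with no filter on low counts (5.86% of genes called), limma-trend on log2(TPM + 1) (2.97%) or on log2(TPM + 0.1) (2.61%), and edgeR without LISC replicate 1 (2.36%). The estimate was lower in LISC for 8 genes and higher in LISC for 1, with a median log2 difference of -0.27 against -0.02 over all genes tested. In 5 of the 9 the LISC and SISC libraries did not overlap, with LISC below SISC for Msi1, Bmi1, Prom1 and Tert and above it for Cd44. Over all genes tested, 40.3% did not overlap, with LISC below in 18.4% and above in 21.9%.

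**Figure D1:**
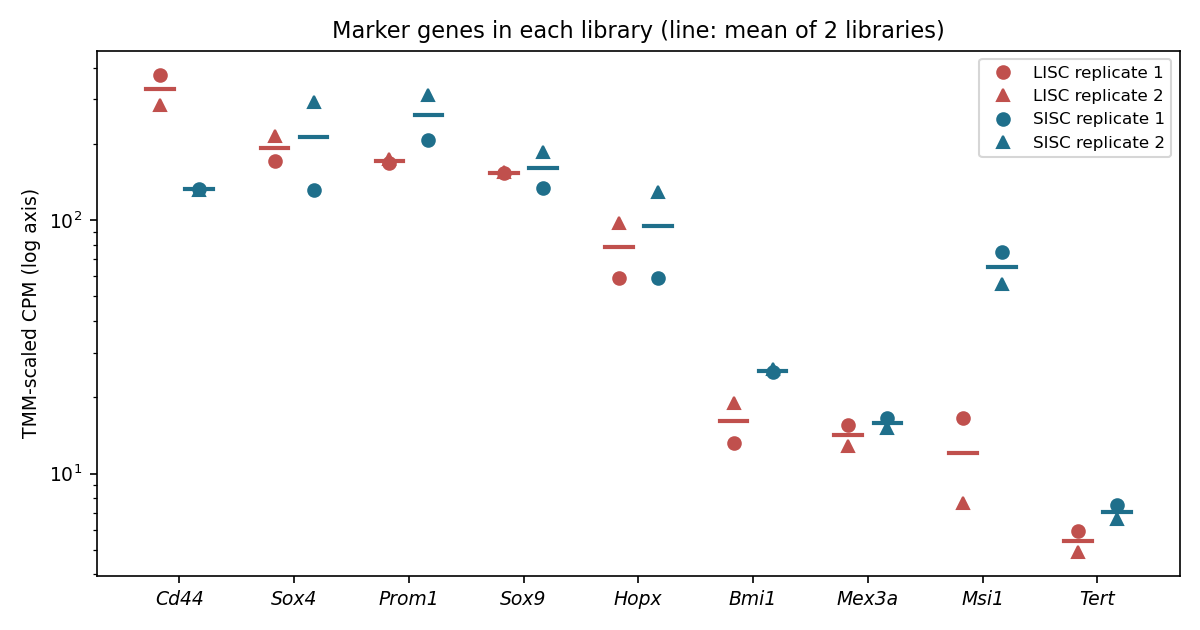
TMM-scaled CPM (log axis) of the 9 marker genes in each library, with LISC in red to the left of SISC in blue, circles for replicate 1, triangles for replicate 2 and a line at the mean of 2 libraries. Msi1 lies at 16.6 and 7.63 CPM in LISC, below its 75.2 and 55.9 CPM in SISC, while Cd44 lies at 375 and 285 CPM in LISC, above its 133 and 132 CPM in SISC.

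Msi1, an RNA-binding protein that regulates translation of its target mRNAs, had the largest difference of the 9. It was read at 16.6 and 7.63 CPM in LISC, against 75.2 and 55.9 CPM in SISC. Both LISC libraries lay below both SISC libraries. The gene (ENSMUSG00000054256, chromosome 5, 115429599 to 115455698, plus strand, GRCm38) was 5.45-fold lower in LISC, with a log2 difference of -2.45 ± 0.46 (SE, n = 2 libraries each; edgeR adjusted p = 0.0847). Replicate 1 libraries alone gave -2.18 and replicate 2 libraries alone -2.87. By absolute size it exceeded that of 93.2% of genes tested. The call depended on the test: DESeq2 gave an adjusted p of 5.87e-05, and limma-trend on log2(TPM + 1) gave 0.0419. Without LISC replicate 1 the edgeR log2 difference was -3.10, and without LISC replicate 2 it was -1.97, each with 1 LISC library left. On a scale per transcript length, Msi1 was at 4.01 and 4.61 TPM in LISC and 27.3 and 29.3 TPM in SISC. Set against Lgr5 in the same library, its TPM was 0.181 and 0.176 of that of Lgr5 in LISC and 1.50 and 0.600 of it in SISC.

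Mex3a, whose protein binds mRNA through KH domains (ENSMUSG00000074480, chromosome 3, 88532395 to 88541396, plus strand), was read at 15.6 and 12.8 CPM in LISC and 16.5 and 15.1 CPM in SISC. The libraries of the 2 groups overlapped, and the log2 difference was -0.16 ± 0.25 (edgeR adjusted p = 0.966), and -0.09 and -0.24 by replicate number. Leaving out LISC replicate 2 put it at -0.01. Msi2, the paralog of Msi1, was at 54.9 and 49.6 CPM in LISC and 42.3 and 32.9 CPM in SISC, 0.48 ± 0.26 apart on the log2 scale (edgeR adjusted p = 0.607). Mex3c and Mex3d, paralogs of Mex3a, had log2 differences of -0.73 ± 0.32 and -0.73 ± 0.31 and did not pass (edgeR adjusted p = 0.456 and 0.420). A list of 14 genes held Numb besides Musashi, Mex3 and other RNA-binding proteins of stem cells. Of the 14 genes, 11 were tested and 0 were called by edgeR. An unadjusted p below 0.05 was reached by 2 (Celf2 and Igf2bp3), and DESeq2 called 1 gene in each direction. The list's median log2 difference was -0.20. Its highest gene per length was Elavl1, an RNA-stabilising protein gene, at a mean of 31.6 TPM over the 4 libraries.

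Cd44, the cell-surface receptor for hyaluronan and a Wnt target in crypts, was the only one of the 9 with a higher estimate in LISC. It was read at 375 and 285 CPM in LISC, against 133 and 132 CPM in SISC. Both LISC libraries lay above both SISC libraries, which differed little from each other. The gene (ENSMUSG00000005087, chromosome 2, 102811141 to 102901665, minus strand) had a log2 difference of 1.32 ± 0.32, or 2.50-fold (edgeR adjusted p = 0.146). By replicate number the difference was 1.50 and 1.11. DESeq2 called it at an adjusted p of 0.00605. Immune cells also express Cd44. Of 12 immune marker genes, Cd4 and Cd3d had 0 counts in every library, and the sum over the list was 6.21 and 9.45 CPM in LISC and 8.44 and 7.75 CPM in SISC. Ptprc, the pan-leukocyte marker gene, was at 1.30 and 4.78 CPM in LISC and 0.364 and 0.469 CPM in SISC. The 12 stromal and endothelial markers summed to 5.56 and 6.98 CPM in LISC and 7.13 and 2.81 CPM in SISC, with Lum and Kdr at 0 counts in every library.

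Prom1 encodes prominin 1 (CD133), a glycoprotein of membrane protrusions (ENSMUSG00000029086, chromosome 5, 43993620 to 44102032, minus strand). It was read at 168 and 174 CPM in LISC and at 208 and 312 CPM in SISC. The LISC libraries lay below both SISC libraries, which lay far apart themselves. Its log2 difference was -0.60 ± 0.34 (edgeR adjusted p = 0.633), and by replicate number -0.31 and -0.84. Leaving out SISC replicate 2 put it at -0.30. Of 16 partner genes of Cd44 and Prom1, 11 were tested and 0 were called, 2 had an unadjusted p below 0.05, and the median log2 difference was 0.28. Those 2 were Cd9, a tetraspanin gene, and Cd47, the gene of a surface signal against phagocytosis. Cd9, the highest of the list per length at a mean of 87.8 TPM, was at 136 and 149 CPM in LISC and 46.6 and 44.1 CPM in SISC, 1.65 ± 0.26 apart on the log2 scale, which missed the threshold (edgeR adjusted p = 0.0593) and passed with DESeq2 (3.40e-05) and with a stricter filter in edgeR (0.0451). Cd47 had a log2 difference of -1.24 ± 0.27 (edgeR adjusted p = 0.117; DESeq2 0.0106). The paralog Prom2 and the hyaluronan synthase genes Has1 and Has2 had 0 counts in every library, which allows up to 3 counts each, or 0.110 to 0.234 CPM before TMM scaling.

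**Figure D2:**
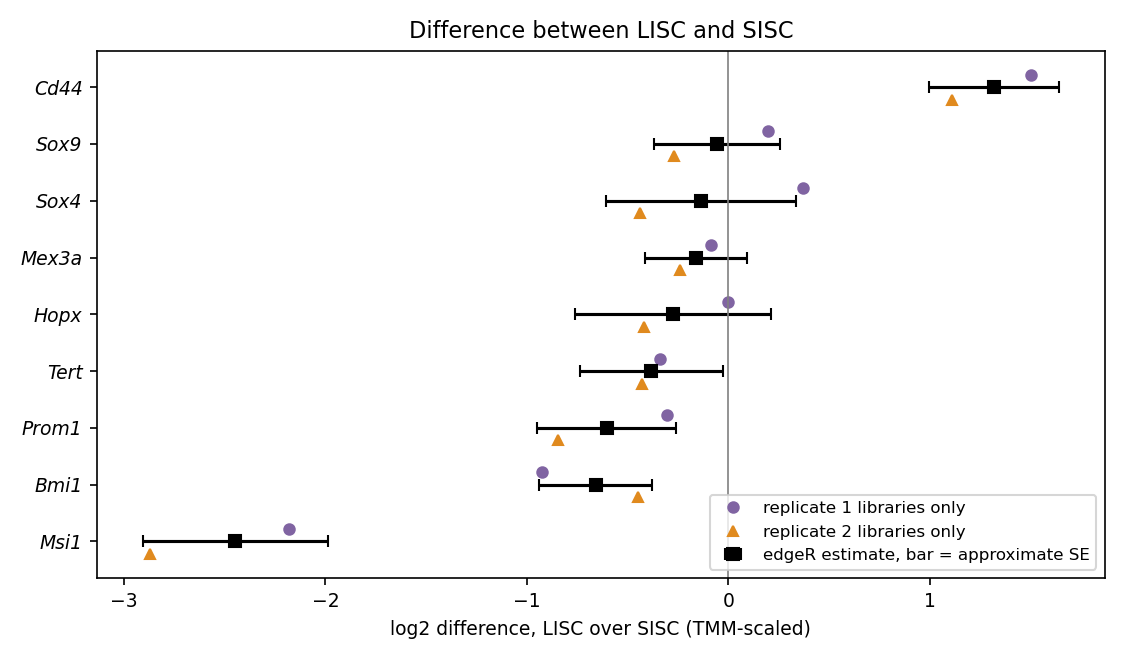
Log2 difference of LISC over SISC for the 9 genes. Black squares are edgeR estimates with approximate SE, circles compare the replicate 1 libraries and triangles the replicate 2 libraries. Msi1 lies at -2.45 and Cd44 at 1.32, and for Sox4 and Sox9 the values within replicates 1 and 2 fall on opposite sides of 0.

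Bmi1, Tert and Hopx were the genes by which the reserve pool was first traced. Bmi1, a subunit of Polycomb repressive complex 1 (ENSMUSG00000026739, chromosome 2, 18677018 to 18686629, plus strand), was read at 13.3 and 18.9 CPM in LISC and 25.2 and 25.8 CPM in SISC. Both LISC libraries lay below both SISC libraries. The log2 difference was -0.66 ± 0.28 (edgeR adjusted p = 0.437), and by replicate number -0.93 and -0.45. Leaving out LISC replicate 1 put it at -0.43. Of 17 other genes of the complex, all were tested and 0 were called by edgeR or DESeq2, 2 had an unadjusted edgeR p below 0.05, and the median log2 difference was -0.09. Pcgf2, the closest paralog of Bmi1, was the highest of them per length, at a mean of 19.0 TPM against 6.72 TPM for Bmi1.

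Tert, the reverse transcriptase of telomerase (ENSMUSG00000021611, chromosome 13, 73626911 to 73649843, plus strand), was the lowest of the 9 genes per length in every library. It was read at 5.93 and 4.92 CPM in LISC and 7.49 and 6.62 CPM in SISC, from 64 and 143 counts in LISC and 103 and 212 counts in SISC. The LISC libraries lay below the SISC libraries by a small step, and the log2 difference was -0.38 ± 0.36 (edgeR adjusted p = 0.868), and by replicate number -0.34 and -0.43. Leaving out LISC replicate 2 put it at -0.24. Of 13 telomerase and shelterin genes, 12 were tested, 0 were called by edgeR or DESeq2, and 0 had an unadjusted p below 0.05. Their median log2 difference was -0.16, against -0.02 over all genes tested, and all 12 estimates were below 0. Nhp2, a telomerase ribonucleoprotein gene, was the highest per length, at a mean of 136 TPM. Terc, the gene of the telomerase RNA, had 0 counts in every library. The RNA was poly(A)-selected, so these counts cannot show whether telomerase RNA without a poly(A) tail was present.

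Hopx encodes a small homeodomain protein that does not bind DNA (ENSMUSG00000059325, chromosome 5, 77086988 to 77115121, minus strand). It was read at 59.2 and 97.0 CPM in LISC and at 59.4 and 130 CPM in SISC. The groups overlapped and the replicate 2 libraries were the higher ones in both. Its log2 difference was -0.27 ± 0.49 (edgeR adjusted p = 0.972), and by replicate number it was -0.004 and -0.42. The sign of the estimate rested on single libraries: leaving out SISC replicate 2 gave 0.37 and leaving out LISC replicate 1 gave 0.04.

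Sox4 and Sox9 encode HMG-box transcription factors. Sox4 is ENSMUSG00000076431 on chromosome 13 (28948919 to 28953713, minus strand) and Sox9 is ENSMUSG00000000567 on chromosome 11 (112782224 to 112787760, plus strand). Sox4 was read at 170 and 216 CPM in LISC and 132 and 293 CPM in SISC, so that both LISC libraries fell between the SISC libraries. Its log2 difference was -0.14 ± 0.47 (edgeR adjusted p = 0.999), but by replicate number it was 0.37 and -0.44. Leaving out SISC replicate 2 gave 0.52 and leaving out LISC replicate 1 gave 0.02. Sox9, which Paneth cells need for their formation, was read at 153 and 154 CPM in LISC and 134 and 186 CPM in SISC, with the LISC libraries again between those of SISC. Its log2 difference was -0.06 ± 0.31 (edgeR adjusted p = 0.9995), with 0.20 and -0.27 by replicate number and 0.18 when SISC replicate 2 was left out. Of 17 other Sox genes 5 were tested and 0 called, 1 had an unadjusted p below 0.05, and 5 had 0 counts in every library. That 1 was Sox21, at 2.97 and 4.06 CPM in LISC and 0.146 and 0.219 CPM in SISC, which missed the threshold (edgeR adjusted p = 0.0635) and passed with DESeq2 (0.000179). Sox13 was the highest of these per length, at a mean of 13.8 TPM.

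Within libraries the order of the 9 genes can be read from TPM, which divides by transcript length, whereas TPM between replicate numbers also moves with the rRNA share. Prom1 and Hopx were at the top in most libraries, with Prom1 at 56.2 and 101 TPM in LISC and 79.9 and 184 TPM in SISC, and Hopx at 41.1 and 129 TPM in LISC and 49.8 and 159 TPM in SISC. Cd44 was at rank 2 in LISC replicate 1 and rank 3 in LISC replicate 2, at 54.1 and 82.5 TPM, and at rank 5 in both SISC libraries, at 23.8 and 34.1 TPM. Sox4 was at 23.2 and 59.6 TPM in LISC and 20.1 and 74.7 TPM in SISC, and Sox9 at 24.4 and 49.7 TPM in LISC and 23.9 and 55.4 TPM in SISC. These 2 changed places between libraries, and their levels cannot be ordered beyond that spread. Bmi1 was at 2.86 and 8.61 TPM in LISC and 5.43 and 9.97 TPM in SISC, and Mex3a at 1.74 and 2.92 TPM in LISC and 2.06 and 3.19 TPM in SISC. Mex3a was at rank 8 and Tert, at 0.99 and 1.63 TPM in LISC and 1.42 and 2.89 TPM in SISC, at rank 9 in every library. Among the genes tested, Tert stood between the 18.6 and 28.8 percentile of TPM over the 4 libraries, and Prom1 at the 94.2 and 92.1 percentile in LISC and the 95.1 and 95.8 percentile in SISC. Msi1 stood at the 44.0 and 33.4 percentile in LISC and the 85.1 and 77.2 percentile in SISC.

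The counts of these genes were little affected by reads shared with other genes. The deposited posterior SD of the count was 0 for 8 of them in every library and at most 0.22 reads for Bmi1. Annotated genes overlap 5 of the 9. Hopxos, on the strand opposite Hopx, had 2 and 28 counts in LISC and 14 and 28 in SISC, against 639 and 2822 counts of Hopx in LISC and 816 and 4146 in SISC. Gm16401, opposite Prom1, had 5 to 23 counts, and Gm42716, on the same strand as Prom1, had 0 to 30. The sources used here do not say whether counting used strand, so it is not known whether strand separated the reads of opposite genes. Genes within Mex3a, Msi1 and Cd44 had 0 counts. Mex3a, Sox4 and Sox9 have 1 annotated transcript each, and Cd44 and Msi1 have 9 each. The deposited mean transcript length, weighted by estimated abundance, was 4539 and 4577 bases for Cd44 in LISC and 4112 and 4729 bases in SISC, and 2801 and 2291 bases for Msi1 in LISC and 2189 and 2425 bases in SISC. For both genes the groups overlapped. For Bmi1 it was 3106 and 2983 bases in LISC and 3477 and 3226 bases in SISC. For Tert it was 3950 and 4012 bases in LISC and 3922 and 2878 bases in SISC. The groups did not overlap for Bmi1 and Tert, which had 143 and 64 counts in LISC replicate 1. How often lengths do not overlap over all genes was not counted.

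Replicate numbers also differed in these genes. Hopx was 1.64-fold higher in replicate 2 than in replicate 1 of LISC and 2.18-fold higher in SISC. Sox4 was 1.26-fold higher in replicate 2 of LISC and 2.22-fold higher in SISC. Msi1 went the other way, at 0.460 and 0.743 of its replicate 1 level in LISC and SISC. In all, 5 of the 9 were higher in replicate 2 of both groups and 4 lower in both, against 40.1% and 33.3% of genes tested. The log2 difference between LISC and SISC had the same sign within both replicate numbers for 7 of the 9 genes, and for 66.3% of all genes tested.

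**Figure D3:**
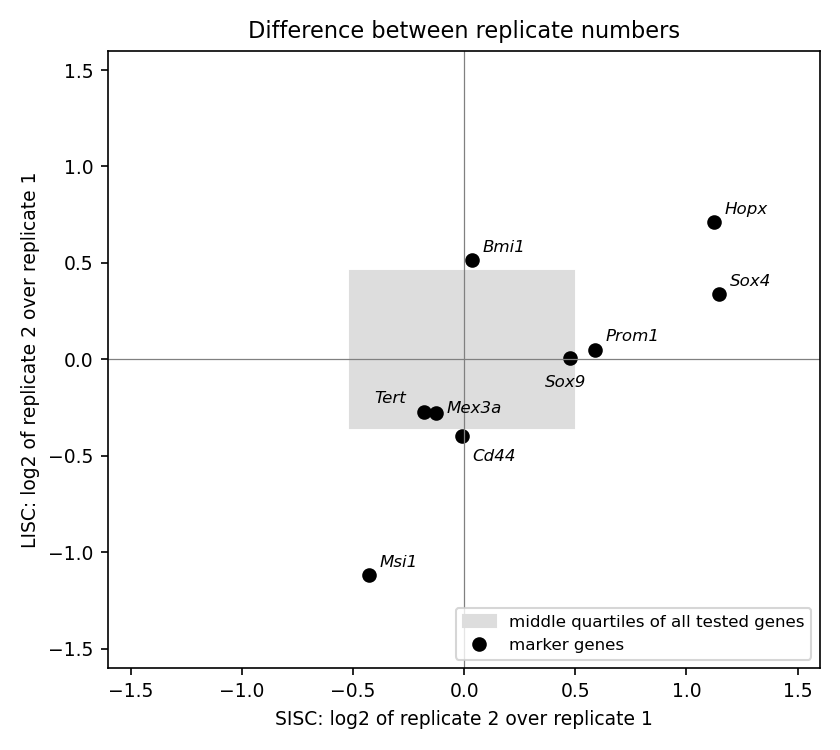
Log2 ratio of replicate 2 over replicate 1, in LISC on the vertical and in SISC on the horizontal axis, for the 9 genes, with the middle quartiles of all genes tested as a grey box. Hopx, at 0.71 in LISC and 1.13 in SISC, and Sox4, at 0.34 in LISC and 1.15 in SISC, lie to the upper right and Msi1, at -1.12 in LISC and -0.43 in SISC, to the lower left.

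Likeness of pattern was measured as the root mean square distance between log2 CPM profiles over the 4 libraries, each centred on its own mean, with 8611 other genes at a mean of at least 5 TPM. With 4 libraries that share depth and composition this is a description only. The nearest genes to Msi1 were Prelp, at a distance of 0.072, and Dnm1, at 0.13, and 1 gene in all lay within 0.1. Prelp was read at 31.4 and 16.5 CPM in LISC and at 149 and 118 CPM in SISC. The nearest to Cd44 were Pcdhgc4 (0.099) and Crtap (0.12), with 1 gene within 0.1. The nearest to Bmi1 were Amacr (0.040) and Jmjd6 (0.047), and to Prom1 Tmem208 (0.023) and Scml4 (0.044), with 29 and 27 genes within 0.1. Profiles close to those of the other genes were common: 86 genes lay within 0.1 of Hopx, 51 of Sox4, 211 of Tert, 226 of Sox9 and 284 of Mex3a. The nearest to Hopx was Chchd1. The nearest to Sox4 were Hat1 and the ribosomal protein gene Rpl9, to Tert Atad3a and Msh6, to Mex3a Dmtf1 and Snx25, and to Sox9 Sptssa and Nmd3. Among the 9 themselves, the closest pairs were Tert with Mex3a (0.11) and Hopx with Sox4 (0.16).

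Other genes reported as markers of alternative, injury-induced or progenitor stem cells were held in a list of 16. Of these 15 were tested and 3 called, each of them higher in LISC, and the median log2 difference was 0.20. Ly6a, the gene of the surface protein Sca-1 that marks regenerating epithelium, was at 7.51 and 12.9 CPM in LISC and 0.582 and 0.4998 CPM in SISC, 4.24 ± 0.52 apart on the log2 scale (edgeR adjusted p = 0.0360). Its call was lost without SISC replicate 2 (4.09) and without LISC replicate 2 (3.80). Aldh1a1, a retinaldehyde dehydrogenase, was 11.5-fold higher in LISC, at 31.9 and 55.7 CPM, against 4.73 and 3.00 CPM in SISC (edgeR adjusted p = 0.0369), and lost its call when SISC replicate 2 was left out (log2 3.18). Anxa1, the annexin A1 gene, was at 12.0 and 18.5 CPM in LISC and had 1 and 0 counts in SISC (edgeR adjusted p = 0.0264). Krt15 and Clu, a keratin and a clusterin gene that mark long-lived and injury-responsive cells, had lower estimates in LISC and missed the threshold, at log2 differences of -3.57 ± 0.57 (edgeR adjusted p = 0.0593) and -2.22 ± 0.48 (0.117). DESeq2 called both, at 6.15e-05 and 0.00681. Lrig1, at 245 and 186 CPM in LISC and 237 and 223 CPM in SISC, and Krt19, the highest of the list per length at a mean of 978 TPM, did not pass.

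Of 14 genes of the Lgr5 stem cell programme, all tested, 2 were called, Olfm4 and Tnfrsf19, both lower in LISC, and the median log2 difference was -0.74. Msi1 had a larger fitted difference than Axin2 (-1.41) and Smoc2 (-1.40), a smaller one than Tnfrsf19 (-3.18) and Olfm4 (-6.66), and these differences between genes were not tested. The call of Olfm4 was lost without LISC replicate 1 (-6.55) and without LISC replicate 2 (-6.78), and Tnfrsf19 lost its call without LISC replicate 2 (-2.91). Of 15 genes of cell division and its inhibitors, all tested, 0 were called by edgeR or DESeq2, and 0 had an unadjusted edgeR p below 0.05. Their median log2 difference was -0.21, against -0.02 over all genes tested, and 14 of them had estimates below 0. The highest of these per length was Pcna, a DNA replication clamp gene, at a mean of 194 TPM.

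Several of the 9 genes are also expressed by secretory cells of the crypt, whose markers differed between libraries. The 9 Paneth cell markers summed to 56.5 and 29.6 CPM in LISC and to 9011 and 1380 CPM in SISC, and 9 of 9 had lower estimates in LISC with 0 called by edgeR, 9 at an unadjusted p below 0.05 and 8 by DESeq2. Goblet and deep crypt secretory cell markers summed to 3989 and 8504 CPM in LISC and to 2157 and 470 CPM in SISC, and 9 of 9 had higher estimates in LISC with 0 called by edgeR and 4 by DESeq2. Tuft cell markers summed to 85.1 and 136 CPM in LISC and to 22.3 and 4.84 CPM in SISC, among them Dclk1, itself used as a marker of alternative stem cells, at 21.6 and 41.7 CPM in LISC and 3.78 and 0.219 CPM in SISC. Enteroendocrine markers summed to 89.8 and 122 CPM in LISC and to 187 and 33.1 CPM in SISC, with 1 of 10 tested called, Sct, higher in LISC, a call lost without SISC replicate 2 (log2 4.21). The 10 absorptive markers summed to 533 and 745 CPM in LISC and 491 and 477 CPM in SISC, with Car4 called higher and Sis lower in LISC. SISC replicate 1, the library with the most Paneth and enteroendocrine marker RNA, had the lower Hopx, Sox4, Prom1 and Sox9 levels of the 2 SISC libraries and the higher Msi1 level. Hopx and Sox4 were also lower and Msi1 higher in replicate 1 of LISC. There Paneth markers summed to 56.5 CPM in replicate 1 and 29.6 CPM in replicate 2. In SISC, goblet and tuft marker sums were also higher in replicate 1. In LISC, goblet, tuft and enteroendocrine markers were instead lower in replicate 1, at 3989 and 8504, 85.1 and 136, and 89.8 and 122 CPM. Prom1 and Sox9 differed little between the LISC libraries, at 1.04-fold and 1.01-fold in replicate 2 over replicate 1. Bmi1 was lower, and Tert, Mex3a and Cd44 higher, in replicate 1 of both groups. In SISC, however, Bmi1 and Cd44 differed little, at 1.02-fold and 0.994-fold in replicate 2 over replicate 1. The rRNA share also split the libraries by replicate number. The part of secretory cells or of the rRNA share in the levels of the 9 genes was not tested. A CD24 gate is named for SISC alone, so region and gate cannot be told apart in any difference between LISC and SISC.

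**Figure D4:**
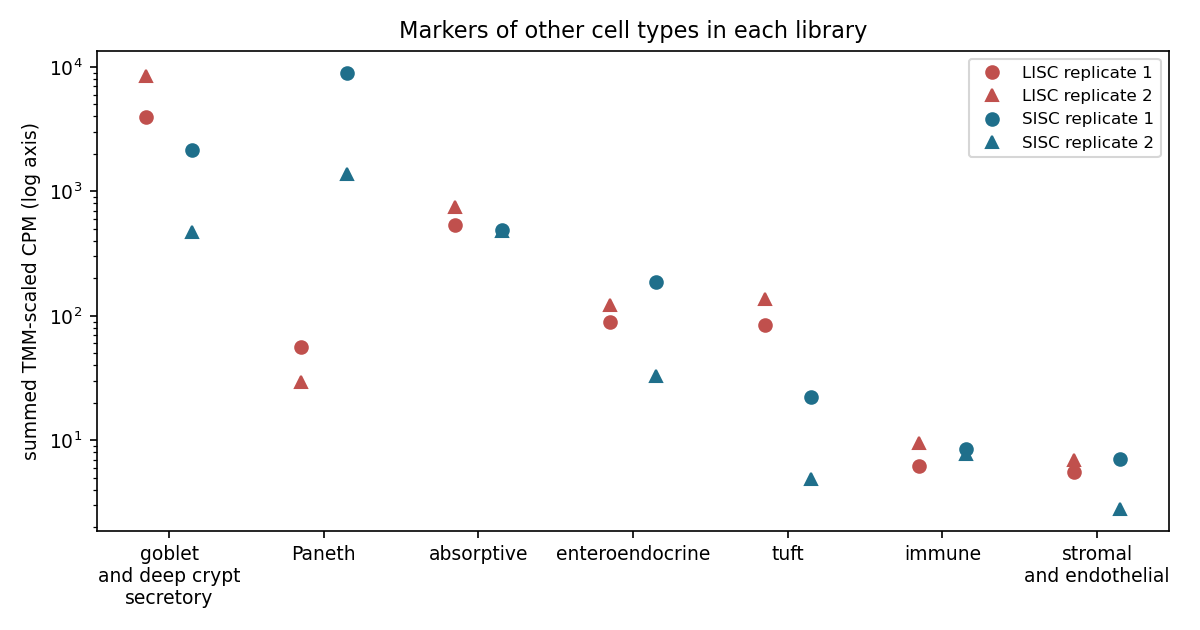
Summed TMM-scaled CPM (log axis) of marker lists of other cell types in each library, LISC in red to the left of SISC in blue, circles for replicate 1 and triangles for replicate 2. Paneth markers reach 9011 CPM in SISC replicate 1 and lie at 56.5 and 29.6 CPM in LISC, and immune and stromal markers stay at or below 9.45 CPM in every library.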

How the data were processed

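Poly(A)-selected RNA was made into libraries with a strand-marking kit, per the labels' protocols. The submitters' processing notes list STAR 2.7.2b, RSEM 1.2.31, GRCm38 and mm10. The sources used here do not give the annotation release or whether counting used strand. The authors deposited RSEM expected counts (reads divided among genes by estimated abundance; for 7.25% of genes at least 1 library was off a whole number by over 0.001), which were rounded here. The deposited TPM values are scaled by effective length, and the deposited transcript lengths and posterior SD of counts are signal columns used as description. Symbols and 1-based coordinates come from GENCODE vM21, which named 55227 of 55487 genes.

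LISC over SISC was fitted over all genes with edgeR 4.0.16 in R 4.3.3 (glmQLFit, group only, TMM, filterByExpr with minimum count 10; 14165 genes; Benjamini-Hochberg, threshold 0.05); SE is the log2 difference divided by the square root of F. Alternatives used DESeq2 1.42.0 and limma 3.58.1. Fits that left out 1 library had 1 library in that group, so their spread came from the other group alone. Calls gained or lost in those fits may reflect that. Depth, in total counts, was 12795405 and 24142172 in LISC and 16490462 and 27227681 in SISC; limits of 3 counts cover counting error only. The 9 genes and all lists were chosen with earlier results of these data known. Named genes are the 9, up to 4 called genes at a TPM of at least 1 and the highest gene by TPM of each list, the 2 nearest profiles per gene, Lgr5 and Cd24a; Msi2, Mex3c, Mex3d, Cd9, Cd47, Celf2, Igf2bp3, Sox21, Krt15, Clu, Lrig1, Dclk1, Axin2, Smoc2, Ptprc and genes at 0 counts were named after their values were seen. A few genes that the rule or a small count would name are not reported here. The highest genes of lists of other cell types were Defa24, Spink4, Sh2d6, Sct, Fabp2, Cd68 and Vim.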

Additional observations from a re-analysis of the deposited data

How the results depend on the processing

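Over all genes, edgeR called 206 in favour of LISC and 105 in favour of SISC. DESeq2 called 779 and 389, edgeR with no filter 942 and 465, and limma-trend on TPM with no filter 0 and 0 at an adjusted p below 0.05. Leaving out 1 library gave 166 to 338 and 79 to 149, the most higher in LISC (338) without SISC replicate 1. Of the 9 genes, 0 were called in the main fit, 2 with DESeq2, 1 each with no filter, with limma-trend at pseudocounts of 1 and 0.1, and 0 to 1 when a library was left out. Msi1 was called in 6 of 13 alternatives, among them DESeq2 (-2.47), no filter (-2.46) and limma-trend at pseudocounts of 1 (-2.47) and 0.1 (-2.69), and Cd44 in 2 of 13, among them DESeq2 (1.29). Over the libraries left out, the log2 difference ran from -3.10 to -1.97 for Msi1, 1.11 to 1.52 for Cd44, -0.74 to 0.37 for Hopx, -0.61 to 0.52 for Sox4, -0.28 to 0.18 for Sox9, -0.68 to 0.05 (0.046 without LISC replicate 2) for Lgr5 and -0.18 to 0.43 for Cd24a. Bmi1, Prom1, Tert and Mex3a kept their sign and were not called in any of the 13. The cause was not tested.

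With the replicate number as a block (replicate block), edgeR called 1015 and 524 genes and 2 of the 9 (10.9% of genes), Msi1 (-2.53, adjusted p = 0.00288) and Cd44 (1.31, adjusted p = 0.0115). The labels do not say that a number marks a shared animal or batch, so the libraries share only a number; deviations of same-numbered libraries from their group means correlated at 0.648 across genes, which are not independent replicates. Of the 9 genes Tert had the fewest counts, 64 to 212 per library.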
